A study of Homo sapiens with 18 samples.

Results

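The intervals described here belong to the genes with the most intervals in a SLAM-seq table of labelled RNA from MDA-MB-453 cells. Each row of that table is an interval named by an Ensembl gene ID and a number. The members are all rows of genes whose highest interval number was 40 or more, without the first and the last row of each gene. The rule took 6425 of 98665 rows (6.51%) from 264 of 12755 genes (2.07%). For 9 of the 264 genes only a first and a last row, or fewer, were present, so 255 genes gave at least 1 member. The rule read only row names, but the highest, first and last numbers depended on which rows were present in the table. No member row had fewer than 14 reads over the libraries, and how rows were chosen for the table is not given. MDA-MB-453 is an established luminal breast cancer line. The 18 libraries fall into 6 groups of 3: total, nuclear and cytoplasmic RNA, each after DMSO, the solvent control, and after JQ1-VHL. JQ1-VHL was given for 3 hours, and all groups had 0.1 mM 4-thiouridine in the medium for the last 60 minutes. Sample titles call the drug dBET, while the treatment label and the series description call it JQ1-VHL, the name used here. The cells were opened with 1 mg/ml digitonin to part cytoplasm from nuclei, and polyadenylated RNA was sequenced as 150 bp pairs. No label states whether replicates came from separate cultures. The p-values below therefore cover the variation among these libraries, which may be technical.

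Most human genes are split into exons and introns, and the spliceosome removes the introns while RNA polymerase II is still transcribing or soon after. Genes with very many introns mostly encode large proteins such as filamins, spectrins, collagens, dynein heavy chains and giant ubiquitin ligases, and each transcript needs many splicing steps before it can leave the nucleus. In SLAM-seq, incorporated 4-thiouridine is alkylated and read as a T-to-C change, so T-to-C reads mark RNA made during the labelling. JQ1-VHL joins a ligand of BET bromodomain proteins to a ligand of the VHL ubiquitin ligase. BET proteins promote transcription by RNA polymerase II.

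Whether these intervals are introns was checked against the GENCODE 29 annotation. Of the 264 gene IDs, 261 matched and 260 were protein-coding. The exception was SNHG14, a long host transcript of small nucleolar RNAs, with the highest number of all (188). In 226 of the 261 matched genes at least 40 gaps lay between merged exons. Highest number and gap count were equal in 51 genes and at most 5 apart in 218. The label thus held for the number of introns per gene in most genes, but interval coordinates were not part of the table, so it was not settled that a row is an intron and not a stretch around it. Only 49.1% of the numbers up to each gene's highest were present, and 8 genes had all of them. The median gene spanned 189 kb, from 20 kb (FASN) to 2173 kb, and 65 genes overlapped another coding gene. Neighbouring rows can share reads. Of 378 neighbouring pairs with at least 100 DMSO cytoplasmic reads, 14.3% differed by under 2%, against 4.28% of 724 pairs in the DMSO nucleus. Over all rows of the table these shares were 17.1% and 4.01%. TTC3 intervals 45, 46 and 47 held 318, 311 and 318 units in DMSO nuclear replicate 1. Rows of a gene are therefore not independent, and counts of rows describe the table and not independent events.

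Sequences of the intervals are not printed, because no genome of the build named in the submitters' processing notes, GRCh37, was used here. RefSeq promoters (GRCh38.p14, 250 bases before to 50 after the start) matched 210 of the 264 genes. They show the gene starts from which these long transcripts are made. Those of the member genes held a median of 29 CG dinucleotides (quartiles 19.2 and 38) against 14 over all 35116 promoters. The letters TATAAA, searched on both strands, occurred in 3.33% of them and in 11.5% of all. The full set was not limited to a single promoter per gene or to genes of this table, while the member set held a single promoter per gene. Whether these differences go with the number of introns was not tested. Member rows were summed for 27 genes, and the promoters shown are those of the highest and the lowest nuclear ratio of JQ1-VHL to DMSO means among the summed genes with a promoter entry. The highest ratio was 0.866 in COL4A5, a chain of basement membrane collagen. The lowest was 0.317 in MADD, an exchange factor for Rab3. The promoter of COL4A5 (chrX:108439588-108439887, plus strand) has 8 CG and that of MADD (chr11:47269883-47270182, plus strand) has 40, written in capitals, and neither holds TATAAA. No promoter was measured in these libraries.
COL4A5: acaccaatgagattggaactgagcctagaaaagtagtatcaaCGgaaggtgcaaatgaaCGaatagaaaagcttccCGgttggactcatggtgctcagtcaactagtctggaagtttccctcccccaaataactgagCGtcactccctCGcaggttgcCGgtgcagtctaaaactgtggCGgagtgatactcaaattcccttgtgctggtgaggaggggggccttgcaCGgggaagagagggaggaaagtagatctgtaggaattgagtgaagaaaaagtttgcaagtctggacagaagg
MADD: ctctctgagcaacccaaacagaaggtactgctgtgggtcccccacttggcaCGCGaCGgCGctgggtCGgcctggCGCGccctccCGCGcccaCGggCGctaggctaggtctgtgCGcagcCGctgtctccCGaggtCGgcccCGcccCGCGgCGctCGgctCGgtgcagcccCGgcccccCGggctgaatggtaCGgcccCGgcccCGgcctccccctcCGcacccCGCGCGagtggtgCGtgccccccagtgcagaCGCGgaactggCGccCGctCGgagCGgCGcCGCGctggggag

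Values are T-to-C read counts scaled per library by an ERCC factor and are called units. The libraries held 1584517 to 6773386 T-to-C reads, of which 75923 to 227559 lay in member rows. JQ1-VHL nuclear replicate 3 was the shallowest, with 23.1% of member rows at 0 against 1.04 to 7.98% in the other nuclear libraries. DMSO cytoplasmic replicates 1 to 3 differed widely in scale, at 1.65, 0.552 and 2.75 units per read. All 10 luminal breast markers were in the table, summing to 18580 to 28931 units in the DMSO nuclear libraries. Of 3 basal markers 1 was present (2.25 to 9.01 units), and of 9 markers of other lineages 2 (348 to 631 units). ERCC RNA was added by mass of RNA, so units are relative to RNA mass and do not give amounts per cell.

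Member intervals made up a larger share of new nuclear RNA after JQ1-VHL. They held 3.84, 3.83 and 3.73% of the summed value in the DMSO nuclear libraries and 4.82, 4.84 and 5.14% in the JQ1-VHL nuclear libraries. The groups did not overlap. The means were 3.80 ± 0.0619% and 4.93 ± 0.176% (SD, n = 3), 1.30 times as high. With 3 libraries a group, 0.1 is the lowest two-sided p that an exact permutation test can reach, and it was reached here. FASN alone carried 9.99% of the members' DMSO nuclear value, and without FASN the share went from 3.43 to 4.30%. Without the 8 genes of highest nuclear value (FASN, TTC3, FLNA, MYH9, SNRNP200, SPTAN1, CNOT1 and GCN1) it went from 2.82 to 3.40%. In rows of genes with a highest number of 60 or more the share went from 0.573 ± 0.00643 to 0.789 ± 0.0411% (SD, n = 3), a ratio of 1.38. The rise was not limited to the members. For genes with a highest number of 31 to 39 the nuclear share went from 5.195 to 6.158%, without overlap. For 11 to 20 it went from 37.45 to 38.54%, also without overlap, and for 21 to 30 the groups overlapped. The share fell without overlap from 24.28 to 22.34% for 6 to 10 and from 15.16 to 13.78% for 1 to 5.

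In the other fractions the drug groups overlapped. In total RNA the share was 2.99 ± 0.0753% under DMSO and 3.13 ± 0.324% under JQ1-VHL (SD, n = 3, exact permutation p = 0.6). In cytoplasmic RNA it was 2.14 ± 0.650% and 2.31 ± 0.0142% (SD, n = 3, exact permutation p = 1). DMSO cytoplasmic replicate 3 stood low at 1.42%, against 2.68 and 2.33% in replicates 1 and 2. Without that library the cytoplasmic difference was -0.197 percentage points instead of 0.164, and without JQ1-VHL total replicate 3 the total difference was -0.00947 instead of 0.146. Nuclear shares lay above cytoplasmic shares under both treatments, by 1.77 times under DMSO and 2.14 times under JQ1-VHL, with no overlap (exact permutation p = 0.1 for each).

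**Figure D1:**
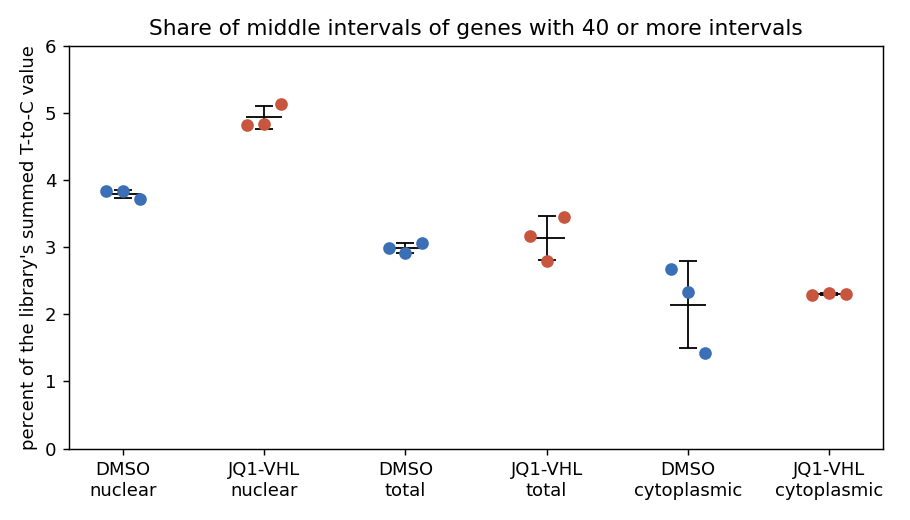
Share of each library's summed T-to-C value in the member intervals (y axis, percent), by group (x axis). Points are libraries and bars are mean ± SD of 3; the JQ1-VHL nuclear libraries lie at 4.82 to 5.14% and the DMSO nuclear libraries at 3.73 to 3.84%.

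Per interval, new nuclear RNA of these genes had a median log2 change of -0.65 under JQ1-VHL, against -1.38 over all tested intervals. Of the 6425 members, 2563 had a mean of at least 10 units over the 18 libraries and were tested, in 221 genes, and they held 88.9% of the members' summed value. The other 3862 rows were too low. By limma on log2(units + 1), adjusted over all 48618 tested rows, 123 member rows were lower and 2 higher in the nucleus. That is 4.8% lower and 0.078% higher, against 22.6% and 0.0555% of all tested rows. With replicate number as a block, which assumes that same-numbered libraries belong together, 213 member rows were called. With each library rescaled to the typical tested row, which moved the median of all rows to -0.24, the members' median was 0.56, with 409 rows higher and 74 lower. These are 16% and 2.89% of members, against 9.72% and 17.6% of all rows. The called rows thus turned from mostly lower to mostly higher with the scale, while the members lay above the other rows on both.

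The number of calls on the ERCC scale rests on few libraries. Leaving out JQ1-VHL nuclear replicate 3 left 9 of the 2563 rows called, and leaving out replicate 1 left 80. Leaving out DMSO nuclear replicates 1, 2 and 3 in turn left 10, 52 and 82. It was 206 and 189 without DMSO cytoplasmic replicates 2 and 3, which enter only the shared spread. The limma fit on this scale treated the row variance as nearly known, although rows of a library share most of their deviation through the library's factor.

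ANKRD30A lost nearly all its new RNA. It encodes a breast differentiation antigen (NY-BR-1) and has close relatives in the genome, so reads that fit several copies make its level uncertain (ENSG00000148513, chr10:37125788-37384111 in GENCODE 29, GRCh38, plus strand). Its 13 member intervals summed to 1868, 935 and 798 units in the DMSO nuclear libraries and to 26.6, 29.1 and 18.1 in the JQ1-VHL nuclear libraries. The groups were far apart, with a ratio of means of 0.0205. All 8 of its tested rows were lower, with a median log2 change of -4.57, and 7 of them were lower after rescaling. Interval 42 had 396, 263 and 214 units under DMSO and 2.66, 1.94 and 1.90 under JQ1-VHL in the nucleus, a log2 change of -6.49 ± 0.82 (SE; limma adjusted p = 1.57e-10). In the cytoplasm the same interval had 495, 167 and 644 units against 20.9, 25.8 and 20.9. Interval 40 had 45.9, 22.4 and 30.1 units under DMSO and no read in any JQ1-VHL nuclear library. Against a floor of 3 counts per library, the nuclear level was at least 19.8-fold lower. The cytoplasm also had no read under JQ1-VHL, and the bound there was 20.5-fold.

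Among rows with a mean of at least 30 units, 1 per gene, the next largest nuclear decreases lay near the 3′ end of NBEAL2 and CDK5RAP2 and near the 5′ end of SHANK2. NBEAL2, which acts in platelet granule formation, had 314, 109 and 83.7 units in interval 44 under DMSO and 23.4, 43.9 and 1.43 under JQ1-VHL (log2 change -3.37 ± 0.93, SE, limma adjusted p = 0.00612). For CDK5RAP2, a centrosome protein, interval 2 went from 238, 64.0 and 59.7 units to 24.5, 11 and 1.90 (-3.35 ± 0.94, adjusted p = 0.0073). For SHANK2, a scaffold protein of synapses and epithelia, interval 51 went from 118, 44.3 and 43.3 units to 9.57, 6.46 and 2.38 (-3.27 ± 0.86, adjusted p = 0.00446). In these 3 intervals no JQ1-VHL value reached the lowest DMSO value. Without DMSO nuclear replicate 1, or without JQ1-VHL nuclear replicate 3, none of the 3 passed the threshold.

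Among genes with at least 10 tested rows, those with a large part of rows lower included ITPR1, CNOT1 and RAB3GAP2. ITPR1, the IP3-gated calcium channel, had 5 of 14 rows lower. CNOT1, the scaffold of the CCR4-NOT deadenylase, had 9 of 38 rows lower and overlaps SETD6, so its reads may be mixed with those of that gene. RAB3GAP2, a subunit of the Rab3 GTPase-activating protein, had 4 of 18 lower. Over all tested rows the median changes were -0.91 in ITPR1, -1.26 in CNOT1 and -0.60 in RAB3GAP2, against -0.65 over all members. After rescaling these medians were 0.33, -0.09 and 0.62, so most rows of ITPR1 and RAB3GAP2 were not lower on that scale.

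The 2 rows higher in the nucleus, chosen here after their values were seen, were intervals 7 and 9 of NUP210L, a relative of the nuclear pore membrane protein NUP210. Interval 9 had 14.7, 2.25 and 0.941 units under DMSO and 42, 67.8 and 13.8 under JQ1-VHL in the nucleus, so that the groups overlapped in 1 library each. In total RNA it had 2.01, 1.25 and 3.04 units against 83.8, 60.2 and 46.8, without overlap. The log2 change was 2.93 in the nucleus (limma adjusted p = 0.0215) and 4.38 in total RNA (adjusted p = 0.00235). Interval 7 changed by 3.46 in the nucleus (adjusted p = 0.0109). These were the gene's only tested rows.

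The size of the nuclear change ran with the number of intervals across the whole table. The median log2 change of tested rows was -1.98 in genes with a highest number of 1 to 5, -1.78 for 6 to 10, -1.39 for 11 to 20, -1.09 for 21 to 30 and -0.81 for 31 to 39. Within the members it was -0.70 for 40 to 59 (176 genes, 2037 rows) and -0.47 for 60 and above (45 genes, 526 rows). The share of rows lower went from 37.3% in the first class to 5.30% and 2.85% in the members' classes. The order of the medians was the same in each same-numbered pair of libraries, although pairs differed in level: genes of 60 and above stood at -0.92, 0.25 and -0.85 in pairs 1, 2 and 3. At the edge of the rule the order was not kept: rows of genes with a highest number of 39 (25 genes, 201 rows) had a median of -0.61 and those with 40 (25 genes, 255 rows) of -0.89.

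**Figure D2:**
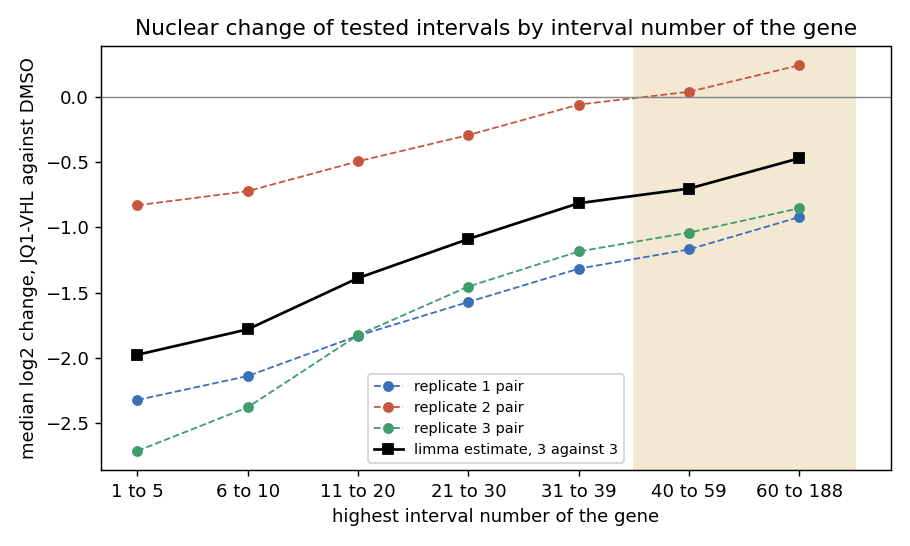
Median log2 change in the nucleus (y axis) of tested intervals by the highest interval number of their gene (x axis). Black squares are limma estimates over 3 against 3 libraries, coloured points same-numbered pairs, and the shaded classes are the members, at -0.70 and -0.47.

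The members' smaller change held at each level of expression. At a mean of 10 to 20 units 6.92% of member rows and 29% of other rows were lower, and the medians were -0.83 and -1.97. At 100 units and above 1.03% and 5.81% were lower, with medians of -0.48 and -0.75. Within the 114 member genes with at least 10 tested rows, each gene's median was below 0 on the ERCC scale, and the highest was -0.04 in SNHG14. After rescaling 100 of the 114 lay above 0. Differences between genes took 24.1% of the variance of the row changes. The rest lay among rows of the same gene and includes the measurement error of single rows, whose part was not estimated.

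Under DMSO, 333 member rows were higher in the nucleus than in the cytoplasm and 78 lower, 13% and 3.04%, against 17% and 14.2% of all tested rows. The balance depended on the fit: edgeR with the ERCC factors called 263 higher and 204 lower, a mean of at least 50 units left 58 and 55, and no filter gave 1254 and 79. The median nuclear-to-cytoplasmic log2 difference was -0.32 over the members and -0.11 over all rows. After rescaling it was 0.51 and 0.75, with 850 member rows higher (33.2%) and 199 lower (7.76%), against 40.4% and 19.7% of all rows. Without DMSO cytoplasmic replicate 2, the library of small scale, 973 member rows were called, and 211 and 262 without DMSO nuclear replicates 1 and 2. This comparison is on 2 separate ERCC additions and does not give amounts per cell.

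IGF2R, COL4A5, LAMA5 and GBF1 had the largest parts of rows higher in the nucleus. IGF2R, the receptor for IGF2 and mannose 6-phosphate on lysosomal enzymes, had 17 of 18 rows higher with a median of 3.00. Its member rows summed to 1577, 915 and 957 units in the DMSO nucleus and 187, 55.2 and 264 in the DMSO cytoplasm. COL4A5 had 17 of 19 higher (median 3.01). LAMA5, a laminin chain that shares its locus with ADRM1, had 13 of 14 higher (median 2.62), and GBF1, an exchange factor for Arf GTPases at the Golgi, had 9 of 12. Every DMSO nuclear library exceeded every DMSO cytoplasmic library for the sums of these 4 genes.

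PTK2, the focal adhesion kinase, stood at the other end, with 20 of 31 rows lower in the nucleus (median -2.10). Its rows summed to 1357, 679 and 645 units in the DMSO nucleus and 3228, 755 and 6029 in the DMSO cytoplasm, so that the groups overlapped through cytoplasmic replicate 2. CARMIL1, which binds actin capping protein, had 5 of 16 rows lower, PCM1, a centriolar satellite protein, 3 of 12, and DOCK9, an exchange factor for Cdc42, 3 of 13. In PTK2 interval 34 the DMSO nucleus had 13.9, 4.49 and 5.64 units and the cytoplasm 95.8, 22.1 and 121, a log2 difference of -2.99 ± 0.87 (SE, limma adjusted p = 0.00478).

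Under JQ1-VHL the median nuclear-to-cytoplasmic log2 difference on the ERCC scale was -1.62 over the members and -1.48 over all rows. Of the member rows 959 were lower in the nucleus and 103 higher, 37.4% and 4.02%, against 41.2% and 4.41% of all rows. The count of called member rows was 645 without JQ1-VHL cytoplasmic replicate 2. Every tested row was lower in TTC3 (49 rows, median -3.27), ECPAS (28), FOCAD (14) and DOCK9 (13). TTC3, a ubiquitin ligase gene in the Down syndrome region, summed to 2568, 3595 and 2415 units in the JQ1-VHL nucleus and 26798, 31353 and 25891 in the cytoplasm. Its DMSO values were 5830, 4119 and 3925 in the nucleus and 18787, 4352 and 19748 in the cytoplasm. After rescaling, 981 member rows were higher in the nucleus under JQ1-VHL and 104 lower, 38.3% and 4.06%, against 37.9% and 19.8% of all rows. The direction of the typical row is therefore set by the scale.

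For the nuclear minus cytoplasmic difference in the drug's effect, limma called no member row. Of all 48618 tested rows it called none higher and 0.0309% lower. The unadjusted limma p was under 0.05 in 224 member rows, 8.74%, against 13.7% of all tested rows. On the ERCC scale the median difference was -1.28 over the members and -1.39 over all tested rows. On rescaled values it was 0.20 and 0.0014, so the members' sign changed with the scale. The lack of calls therefore does not show an equal effect in nucleus and cytoplasm. With the replicate block 5 member rows were called and by edgeR with TMM factors 7. Without DMSO cytoplasmic replicates 1 and 3 and DMSO total replicate 1 limma called 6, 3 and 4. After rescaling 4 member rows were higher (0.156%) and none lower, against 0.222% and 0.284% of all rows: intervals 15 and 16 of PSME4, a proteasome activator, interval 35 of CHD2, a chromatin remodeller, and interval 43 of the kinase MAST4, named here after their values were seen. In MAST4 interval 43 the nucleus had 125, 38.7 and 42.8 units under DMSO and 27.7, 47.1 and 10.4 under JQ1-VHL, which overlap. The cytoplasm had 26.4, 6.63 and 24.8 against 2.09, 0 and 0, which do not.

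Within single genes, intervals differed in their level in the cytoplasm. FLNA, the actin-crosslinking filamin A (ENSG00000196924, chrX:154348524-154374638 in GENCODE 29, GRCh38, minus strand), is described in rows picked after their values were seen. Intervals 8 and 9 and 18 and 19 were high in every fraction. Interval 19 had 908, 584 and 563 units in the DMSO nucleus, 642, 778 and 442 in the JQ1-VHL nucleus, and 1938, 205 and 2589 in the DMSO cytoplasm. The drug groups overlapped, and the log2 change was -0.14 ± 0.77 (SE, limma adjusted p = 0.888). Interval 20, beside it, had 54.0, 31.4 and 25.4 units in the DMSO nucleus, 9.04, 7.75 and 1.90 in the JQ1-VHL nucleus and 16.5, 1.10 and 19.3 in the DMSO cytoplasm. Its drug groups did not overlap, and the log2 change was -2.51 ± 0.94 (adjusted p = 0.0393). Interval 12 had 381, 184 and 122 units against 62.8, 76.8 and 4.28 in the nucleus and 18.2, 1.66 and 5.51 in the DMSO cytoplasm, a change of -2.79 ± 0.86 (adjusted p = 0.0133). Over the gene 12 of 33 tested rows were higher in the nucleus than the cytoplasm under DMSO and none lower.

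**Figure D3:**
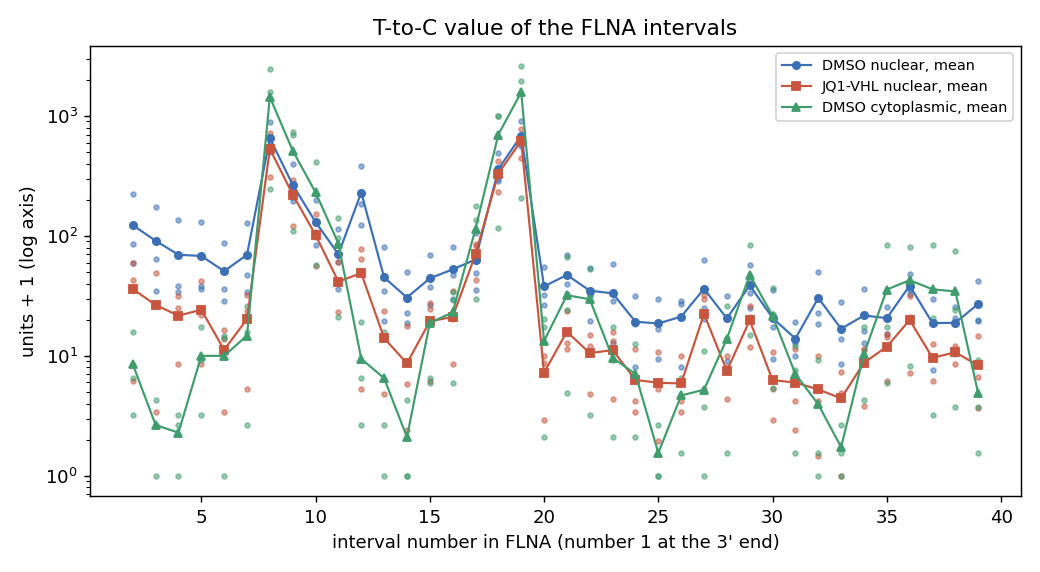
Units + 1 (y axis, log) of the FLNA member intervals by interval number (x axis), with numbers taken to run along the genome. Lines are means of 3 libraries and small points single libraries; intervals 8, 9, 18 and 19 are high in all 3 groups shown, while interval 12 is high in the DMSO nucleus and falls under JQ1-VHL.

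FASN, the fatty acid synthase (ENSG00000169710, chr17:82078333-82098332 in GENCODE 29, GRCh38, minus strand), was the member gene of highest nuclear value. Of its 39 rows 28 were higher in the nucleus than in the cytoplasm under DMSO and none lower. Interval 21 had 382, 143 and 94.0 units in the DMSO nucleus and 33.0, 4.97 and 0 in the cytoplasm (log2 difference 4.89 ± 0.84, SE, limma adjusted p = 2.18e-06). Interval 32 had 736, 460 and 313 units in the nucleus and 1859, 365 and 1556 in the cytoplasm, and lay 3.41 below the other rows of the gene on the log2 scale (limma diffSplice adjusted p = 0.0275), a call lost without any 1 of the DMSO nuclear libraries or DMSO cytoplasmic replicates 1 and 3. Summed over its rows FASN had 20261, 10187 and 6602 units in the DMSO nucleus and 11328, 14291 and 3444 under JQ1-VHL, which overlap. No FASN row passed the test for the drug in the nucleus.

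The test of a row against the other tested rows of its gene found 107 member rows higher in the nucleus than their gene under DMSO and 10 lower, 4.19% and 0.392%, against 3.34% and 0.55% of all rows. With the replicate block 138 were higher and 21 lower. The count was 49, 50 and 64 without DMSO nuclear replicates 1, 2 and 3, and 188 and 54 without DMSO cytoplasmic replicates 2 and 3. CDK5RAP2 interval 2 departed most, by 6.45 on the log2 scale (diffSplice adjusted p = 7.82e-11). SMARCA4 interval 36, in the gene of the BRG1 chromatin remodeller, had 243, 68.5 and 58.8 units in the DMSO nucleus and 24.8, 2.76 and 2.75 in the cytoplasm, a departure of 4.39 (adjusted p = 0.00056). DNMT1, the maintenance DNA methyltransferase, had rows on both sides. Its interval 13 had 160, 81.4 and 65.8 units in the DMSO nucleus and 8.26, 3.31 and 8.26 in the cytoplasm. Its interval 28 had 60.6, 33.1 and 23.5 in the nucleus and 228, 86.2 and 634 in the cytoplasm. The departures were 3.39 (adjusted p = 0.0116) and -3.22 (adjusted p = 0.019), the latter lost without any 1 DMSO nuclear library or DMSO cytoplasmic replicate 3. Under JQ1-VHL 92 rows were higher than their gene and 1 lower, 3.6% and 0.0392%, against 2.96% and 0.381% of all rows. With the replicate block 123 were higher and 14 lower. The count of 93 was 42 and 44 without JQ1-VHL nuclear replicates 1 and 2, 57 and 59 without JQ1-VHL cytoplasmic replicates 1 and 2, and 140 without DMSO cytoplasmic replicate 2. The 1 lower row, ANKRD30A interval 42 (adjusted p = 0.048), lost its call in most of the fits that left out a library.

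For the drug itself the same test called no member row in the nucleus, against 0.00642% higher and 0.00214% lower over all rows, with 72 rows at an unadjusted p under 0.05 and 95 called by edgeR with TMM. Without DMSO cytoplasmic replicate 2 it called 5 rows and without replicate 3, 1 row. Pooled over genes, rows were set into 4 classes by the ratio of the DMSO cytoplasmic to the DMSO total mean, both of rescaled values. These libraries do not enter the nuclear contrast. The members' median nuclear change was -1.28 at a ratio under 0.25 (324 rows), -1.08 from 0.25 to 0.5 (326), -0.66 from 0.5 to 1 (1057) and -0.48 at 1 and above (856). Other rows had -2.38, -2.11, -1.63 and -0.95. Members lay above other rows in each class, and in both sets the lowest median was that of the rows poorest in the cytoplasm. Rows with a ratio of 1 and above held 32.1 ± 1.93% of the members' nuclear reads under DMSO and 38.6 ± 2.60% under JQ1-VHL (SD, n = 3, exact permutation p = 0.1), without overlap. The share of rows from 0.25 to 0.5 was 10.7 and 8.60% (exact permutation p = 0.1), also without overlap. Rows under 0.25 held 19.4 ± 2.99 and 15.2 ± 3.50% (exact permutation p = 0.3), with overlap, and rows from 0.5 to 1 held 37.7 and 37.6% (exact permutation p = 1).

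**Figure D4:**
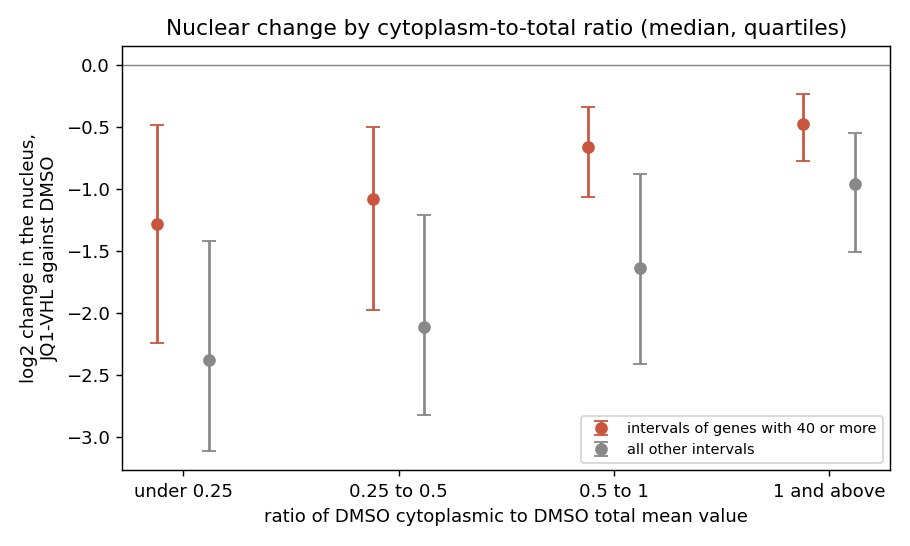
Log2 change in the nucleus on the ERCC scale (y axis) by class of the DMSO cytoplasm-to-total ratio of rescaled values (x axis). Member intervals are red and all other tested intervals grey. Points are medians over rows and bars quartiles; the members go from -1.28 to -0.48 and the other rows from -2.38 to -0.95.

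The same order was seen within 5 of the 6 genes that had at least 5 tested rows on each side, under 0.25 and from 0.5. Rows poor in the cytoplasm had a median of -2.15 and the others of -0.49 in DNMT1. The medians were -2.06 and -0.84 in FLNA, -2.15 and -0.19 in GCN1, an activator of the GCN2 kinase, -2.03 and -0.31 in HUWE1, a ubiquitin ligase, and -1.05 and -0.26 in FASN. SHANK2 was the exception, with -1.25 and -1.35.

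Position in the gene was read from the number and the annotated strand, with numbers taken to run along the genome, and each gene was cut into 5 equal parts. In the DMSO nuclear libraries 36.4 ± 1.01% of the members' reads lay in part 5, the 3′ end, and 30.6 ± 2.08% under JQ1-VHL (SD, n = 3, exact permutation p = 0.1), without overlap. The parts from 5′ to 3′ had median nuclear changes of -0.60, -0.46, -0.55, -0.66 and -0.92. Rows called lower were 14 of 389 tested, 2 of 432, 7 of 431, 21 of 535 and 79 of 765. In part 5 the 146 rows with a low cytoplasm-to-total ratio had a median of -2.11 and the 496 with a high one -0.72. Parts 1 to 4 held 14 to 19.7% of DMSO nuclear reads each. In the DMSO cytoplasm part 5 held 28.7 ± 0.603% (SD, n = 3). The library kit selects polyadenylated RNA, and the part of that selection in the 3′ share was not tested.

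**Figure D5:**
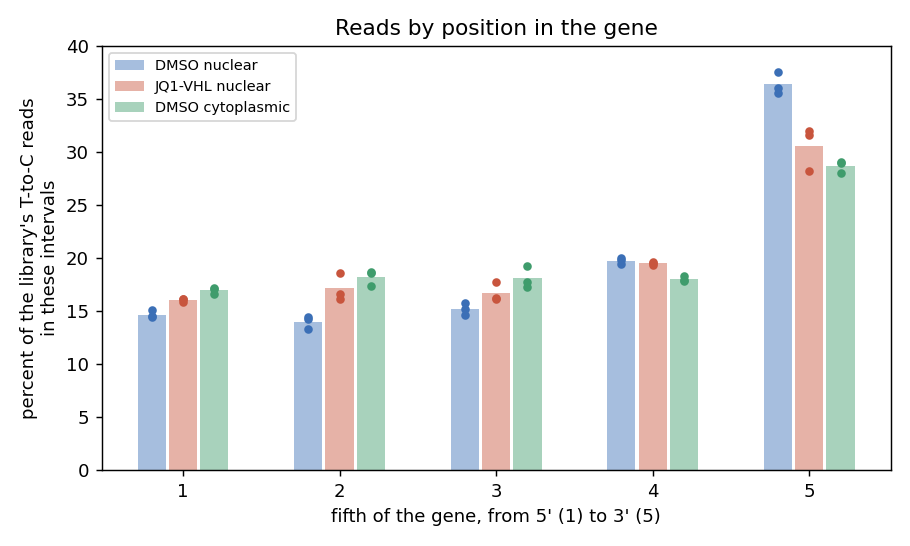
Percent of the members' T-to-C reads (y axis) in each of 5 parts of the gene from 5′ to 3′ (x axis). Bars are means and points the 3 libraries of a group; part 5 goes from 36.4% in the DMSO nucleus to 30.6% in the JQ1-VHL nucleus.

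In total RNA 20 member rows were lower under JQ1-VHL and 2 higher, 0.78% and 0.078%, against 4.24% and 0.0967% of all rows, with 49 called with the replicate block. The median change was 0.36 over members and -0.17 over all rows, and after rescaling 0.26 and -0.25, with 93 member rows higher (3.63%) and 93 lower (3.63%) against 2.62% and 17% of all rows. By edgeR with TMM factors 445 were higher and 87 lower. The higher rows on the ERCC scale were NUP210L interval 9 and interval 89 of the axonemal dynein gene DNAH14. The count of 22 was 5 without DMSO total replicate 1, 10 and 9 without JQ1-VHL total replicates 2 and 3, and 35 without DMSO cytoplasmic replicate 3. In MADD interval 40, total RNA had 260, 35.1 and 40.3 units under DMSO and 23.4, 12 and 1.2 under JQ1-VHL, without overlap (log2 change -3.04 ± 0.93, SE, limma adjusted p = 0.0359). That call was lost without any 1 of DMSO total replicates 1 and 3, JQ1-VHL total replicates 2 and 3, DMSO nuclear replicates 2 and 3 and JQ1-VHL nuclear replicate 1. The test against the gene called 3 rows lower, 0.118% against 0.165% of all rows and 0.0128% higher, with 10 under the replicate block. They were ANKS1B interval 45, EIF4G3 interval 49 and STAG2 interval 39, named after their values were seen. The count was 5, 23 and 12 without DMSO cytoplasmic replicates 1, 2 and 3. STAG2, a cohesin subunit, had 72.5, 21.9 and 27.4 units in interval 39 under DMSO and 4.12, 0 and 1.2 under JQ1-VHL, without overlap.

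In the cytoplasm 14 member rows were lower and 5 higher, 0.546% and 0.195%, against 2.71% and 0.13% of all rows. With the replicate block 21 were lower and 20 higher, so the mostly lower balance was not kept. The median change was 0.64 over members and 0.19 over all rows, and 0.33 and -0.10 after rescaling, with 104 member rows higher (4.06%) and 54 lower (2.11%) against 2.42% and 9.59% of all rows. The 5 higher rows were CLASP2 interval 10, DNAH14 intervals 63 and 89, NUP210L interval 9 and USP34 interval 35. CLASP2 binds growing microtubule ends, and its interval 10 had 26.4, 1.66 and 0 units under DMSO and 46.1, 49.5 and 18.2 under JQ1-VHL, which overlap. Its call was lost by edgeR with the ERCC factors and without any 1 of 4 cytoplasmic libraries (DMSO 2 and 3, JQ1-VHL 1 and 2). CNOT1 had the most rows lower, 4 of 38. The count of 19 was 53 and 4 without DMSO cytoplasmic replicates 2 and 3, 10 without JQ1-VHL cytoplasmic replicate 3 and 33 without DMSO total replicate 1. Against their gene 9 rows were lower and none higher, 0.353% against 0.156% and 0.0214% of all rows, with 15 under the replicate block. That count was 2, 4 and 4 without JQ1-VHL cytoplasmic replicates 2, 1 and 3, 5 without DMSO cytoplasmic replicate 1 or 3 or DMSO nuclear replicate 2, and 19 without DMSO cytoplasmic replicate 2. In 12 of the 19 rows called per interval, and in 4 of the 9 called against the gene, the gene overlapped no other coding gene. The same held for 1895 of 2563 and 1886 of 2553 tested member rows, a larger part than of the called rows.

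The members were also grouped by known function, beside the nuclear median of -0.65 over all members. Of all tested member rows 4.8% were lower, against 22.6% of all tested rows. Chromatin and transcription genes, such as DNMT1, NCOR1 and CHD8, had a median of -0.82 over 233 tested rows of 16 genes, with 9 rows lower. CHD8, a chromatin remodeller, had a median of -1.32 with 3 of 20 rows lower. Guanine nucleotide exchange factors of the DOCK and related families had -0.74 (94 rows, 5 lower). Cytoskeleton and motor genes had -0.62 (311 rows of 25 genes, 7 lower), with MYH9, nonmuscle myosin heavy chain IIA, at -0.99, SPTAN1, a spectrin, at -0.52 and TLN1, talin, at -0.77. Ubiquitin ligases and deubiquitinases had -0.61 (258 rows of 17 genes, 11 lower), with the deubiquitinase USP34 at -0.44. PIKK kinases and HEAT-repeat regulators had -0.60 (173 rows of 10 genes, 11 lower), and genes of DNA replication and repair had -0.61 (50 rows, 2 lower). RNA processing and nuclear pore genes had -0.59 (63 rows, 5 lower), receptors and channels -0.59 (61 rows, 7 lower), and vesicle and lipid transport genes -0.53 (93 rows, 10 lower), with VPS13B, a lipid transfer protein, at 0.08 over 6 rows. These medians lie close together, while the share of rows lower ran from 2.25% (cytoskeleton and motors) to 11.5% (receptors and channels). No row of these lists was higher in the nucleus on the ERCC scale, where only 2 of 2563 member rows were. After rescaling 9.01 to 31.7% of rows per list were higher, against 16% of members and 9.72% of all rows.

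On the ERCC scale the extracellular matrix genes stood closest to no change in the nucleus, but through 2 genes only. Of 9 listed genes that met the rule, COL4A5 and LAMA5 had tested rows, 33 in all, with a median nuclear change of -0.16, none lower or higher on the ERCC scale, and 30 higher in the nucleus than in the cytoplasm under DMSO. COL4A5 rows summed to 1494, 803 and 955 units in the DMSO nucleus and 978, 1225 and 612 under JQ1-VHL, and LAMA5 rows to 1992, 1155 and 760 and 1016, 1322 and 363. Both pairs of groups overlapped. After rescaling the list's nuclear median was 1.12, the farthest from 0 of the lists. On that scale 42.4% of its rows were higher, against 16% of members and 9.72% of all rows. In total RNA the list's median was 0.85 on the ERCC scale. Metabolic enzymes (FASN, CAD and CPS1; 62 rows) had -0.78 with no row lower. Axonemal dyneins were hardly measured: of 3 dynein genes only DNAH14 had tested rows (6, median -0.96).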

How the data were processed

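SLAM-seq libraries (T-to-C reads of 4-thiouridine-labelled, polyadenylated RNA) were described from 1 deposited table of signal values: T-to-C counts divided by 1 factor per library, an ERCC factor per its name. All values were whole multiples of 1 read within 0.01 read (100% of values), so whole reads were recovered and run by edgeR as an alternative. The submitters' processing notes list HISAT2, HTSeq, Trimmomatic 0.39, DESeq2 and bcl2fastq as tools, and dm3, hg19 and GRCh37 as builds. T-to-C calling, counting rule, strand and filters are not given in the sources used here.

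The members and gene lists were chosen with earlier results of these data known. Rows with a mean of at least 10 units were fitted with limma 3.58.1 (R 4.3.3; trend and robust eBayes, log2(units + 1), 6 group means, two-sided, Benjamini-Hochberg at 0.05 over 48618 rows), and row against gene with limma diffSplice over 46694 rows. Fold changes on this scale understate those of low rows. Rescaled values were divided by median-of-ratios factors over 33555 rows without zeros. Shares were tested by exact permutation. On simulated nuclear data of 48618 rows, limma recovered 72% of 200 rows changed 4-fold, diffSplice 63% (46694 rows) and edgeR 4.0.16 72.5%. The edgeR test of a row against its gene (diffSpliceDGE) recovered 47%. In the order limma, diffSplice, edgeR and diffSpliceDGE, 11, 25, 4 and 6 unchanged rows were called beside 144, 126, 145 and 94 changed ones. For limma and diffSplice the part of false calls was above the threshold of 0.05 in this simulation. The simulated libraries were scaled to equal depth, without the spread of the ERCC factors between replicates. Recovery on the ERCC scale of the real libraries was not tested. Counting error limits rows of few reads: the median member row held 2 to 17 reads a library.

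Named intervals were, per comparison, up to 4 called rows at each end with a mean of at least 30 units, 1 per gene; named genes were the 8 of highest DMSO nuclear value, up to 4 per comparison and direction with the largest part of rows called, and up to 4 per list. Some genes that this rule names are not reported here. Alternatives were rescaling, a pseudocount of 0.1, no filter, a mean of at least 50, edgeR, the replicate block and leaving out each library. Pairing was taken from the replicate number in the sample titles, and the replicate block used that number. That same-numbered libraries were handled together is assumed. Correlations of same-numbered libraries were 0.26, -0.13 and 0.31 in the nucleus, 0.06, -0.05 and 0.02 in the cytoplasm and 0.21, 0.07 and 0.13 in total RNA. Pairs were thus not all alike in the values.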

Additional observations from a re-analysis of the deposited data

How the results depend on the processing

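Counts of called member rows moved with most choices, while the direction of the nuclear share difference (1.14 percentage points) held in every alternative run, from 1.03 to 1.19 when leaving out a library and at 0.583 without the 8 genes of highest value. Counts follow in the order drug effect in the nucleus, in total RNA, in the cytoplasm, nuclear minus cytoplasmic drug effect, nucleus against cytoplasm under DMSO and under JQ1-VHL, first per interval. From 125, 22, 19, 0, 411 and 1062, rescaling gave 483, 186, 158, 4 and 1049 for the first 5, no filter 734, 198, 51 and 1333 (first 3 and the fifth), a mean of at least 50 gave 5, 2, 1, 113 and 455 (all but the fourth), edgeR with TMM 485, 532, 188, 7 and 1037 (first 5), and the replicate block 213, 49, 41 and 5 (first 4). A pseudocount of 0.1 gave 22 in the nucleus and 3 in total RNA. Leaving out 1 library gave 9 to 206, 5 to 35, 4 to 53, 0 to 6, 211 to 973 and 645 to 1378. For rows against their gene the counts were 0, 3, 9, 0, 117 and 93. A pseudocount of 0.1 gave 3, 13 and 41 (first 3), no filter 5 in the cytoplasm, a mean of at least 50 gave 0 in total RNA, 0 in the cytoplasm and 13 and 8 for nucleus against cytoplasm, edgeR with TMM 95, 128, 44, 1, 420 and 270, and the replicate block 10 in total RNA and 15 in the cytoplasm. Leaving out 1 library gave 0 to 5, 2 to 23, 2 to 19, 0 to 0, 49 to 188 and 42 to 140. Restricting to genes that overlap no other coding gene, chosen after seeing the data, gave 12 per interval in the cytoplasm and, against the gene, 1 in total RNA, 4 in the cytoplasm and 59 for nucleus against cytoplasm under JQ1-VHL; fewer rows enter there. The total share difference of 0.146 reversed to -0.0629 without the 8 genes of highest value (chosen after seeing the data) and ranged from -0.00947 to 0.314 when leaving out a library; the cytoplasmic one ranged from -0.197 to 0.434, and the nuclear-to-cytoplasmic ones from 1.29 to 1.92 and 2.52 to 2.68. Except where stated, the cause was not tested; fewer rows or libraries enter under stricter filters and left-out libraries. Of 42 named interval results none reversed in 1028 alternatives, 93 of which lost the call, and 22 results kept it in all. These rows were picked as the most extreme calls of the main fit, and the alternatives share most of its libraries. The lack of reversals is therefore no independent support. By direction, the replicate block also took the rows lower than their gene in the nucleus against the cytoplasm from 10 to 21 under DMSO and from 1 to 14 under JQ1-VHL, and it changed no other total by over 1.5 times. Depth limits the low rows: 60.1% of member rows fell under the filter.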

Other observations

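Across the 114 member genes with at least 10 tested rows, the gene's median nuclear change had a Spearman correlation of 0.34 with the highest interval number and of 0.17 with gene length (113 genes with a length). Genes are not independent replicates and share the same libraries. Within 44 genes where numbers and gaps matched and at least 10 rows could be compared, the median Spearman correlation of a row's reads with the length of the gap was 0.14 in the DMSO nucleus, 0.13 in the JQ1-VHL nucleus and -0.05 in the DMSO cytoplasm.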
